A study of Mus musculus with 12 samples.

Results

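The 10 genes described here are Elobl, Ctse, Cep85, Ptms, Bex1, Bex4, Epb41l1, Etl4, Ddn and Mpzl1, which were chosen on these same arrays for large or consistent differences between Fancc mutant and wild-type mouse progenitor cells. They are 10 of the 18193 genes to which the platform annotation gives a probe set with a single symbol. A probe set is a group of short array probes read as 1 measurement, and 22 of the 45037 probe sets tested belong to these genes. Because measured genotype differences chose the genes, those differences are given as a description with no test. Tests are kept to the response to TNF averaged over the genotypes, and to the relatives and chromosomal neighbours of these 10.

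Expression was measured in KSL cells, the lineage-negative bone marrow fraction with c-Kit and Sca-1 on its surface, in which blood-forming stem cells and early progenitors are found. The 4 groups of 3 arrays were Fancc-/- cells cultured with tumour necrosis factor alpha (TNF, 10 ng/ml), Fancc-/- cells cultured without it, wild-type cells cultured with TNF and wild-type cells cultured without it. Mice of both genotypes were aged 2 to 4 months, and every culture was kept for 24 h with serum and the growth factors IL-6, IL-11, Flt3L and SCF, so the RNA came from cultured rather than fresh cells. Amplified RNA was hybridised to Affymetrix MOE430 2.0 arrays, and values are on a log2 scale, on which 1 unit is a doubling of signal. Neither the kind of Fancc mutation nor whether replicates came from separate mice was stated in the labels, so the p-values speak only of spread between these samples, part of which may be technical.

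Fancc belongs to the Fanconi anaemia genes, whose products together repair crosslinks between DNA strands, and progenitor cells that lack it are known for their sensitivity to TNF. TNF is an inflammatory cytokine that signals through cell-surface receptors to the NF-kB transcription factors. The 10 genes were brought together by their values and not by a shared pathway. Their products include an endosomal protease (Ctse), a centrosomal protein (Cep85), a small acidic nuclear protein (Ptms), a pair of small brain-expressed X-linked proteins (Bex1 and Bex4), a membrane-skeleton protein (Epb41l1), a protein of dendrites and podocytes (Ddn) and a cell-surface immunoglobulin-family protein (Mpzl1).

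Fancc signal did not separate the labels in the direction of a loss. Its brightest probe set read 8.87, 9.12 and 8.95 on the TNF-treated arrays labelled mutant and 9.16, 8.73 and 9.15 on the untreated ones, against 8.40, 8.65 and 8.22 on treated and 8.28, 8.22 and 8.49 on untreated wild-type arrays. A probe set outside the deleted or interrupted stretch would check nothing, and where these probes lie was not tested, so genotype is given throughout as labelled. Xist, which is transcribed from the inactive X chromosome, read 5.12 on untreated mutant replicate 1 and 5.47 and 5.06 on untreated wild-type replicates 1 and 2, against at least 12.04 on every other array. The Y-linked Eif2s3y read 4.16 on untreated mutant replicate 2 and 3.79 on treated wild-type replicate 3, against at least 10.46 elsewhere. The arrays thus differed in the sex of the mice, which the labels do not give. Because all 3 arrays without Xist were untreated, sex ran with the TNF contrast (averaged Xist difference 3.74). Sex was also uneven between genotypes within a treatment. Mutant minus wild type, Xist differed by 2.28 without TNF, and Eif2s3y by -2.18 without and 2.37 with TNF. The part of sex in either contrast was not tested beyond the covariate fit and the 7-array fit. That left 7 arrays with signal from both transcripts, namely 3 treated mutant, 1 untreated mutant, 2 treated wild-type and 1 untreated wild-type array. For the brightest probe sets the averaged genotype differences, and for the TNF calls the outcome, are also given on those 7 arrays. Most differences within a single treatment are given on all 12 arrays only. The stem and progenitor markers measured (4 of 6 listed) averaged between 10.58 and 11.17 on every array. They were Kit, Cd34, Flt3 and Meis1, so Ly6a (Sca-1) was not among them. The monocyte and dendritic list averaged 10.17 to 11.59 (6 of 6), the granulocyte list 7.92 to 11.69 (8 of 8) and the mast and basophil list 6.72 to 9.35 (4 of 4). The erythroid list averaged 4.21 to 4.57 (5 of 7 measured) and the stromal and endothelial list 4.25 to 4.82 (4 of 4). Besides the granulocyte list without TNF, given with Elobl, other lists had ranges apart by genotype. The 4 megakaryocyte markers averaged 7.51 to 7.74 on treated and 7.49 to 7.66 on untreated mutant arrays, against 7.85 to 8.06 on treated and 7.70 to 8.27 on untreated wild-type arrays. With TNF the stem and progenitor list also ran lower, at 10.80 to 10.93 on mutant and 11.04 to 11.10 on wild-type arrays. The part of these cells in the genotype differences was not tested.

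**Figure D1:**
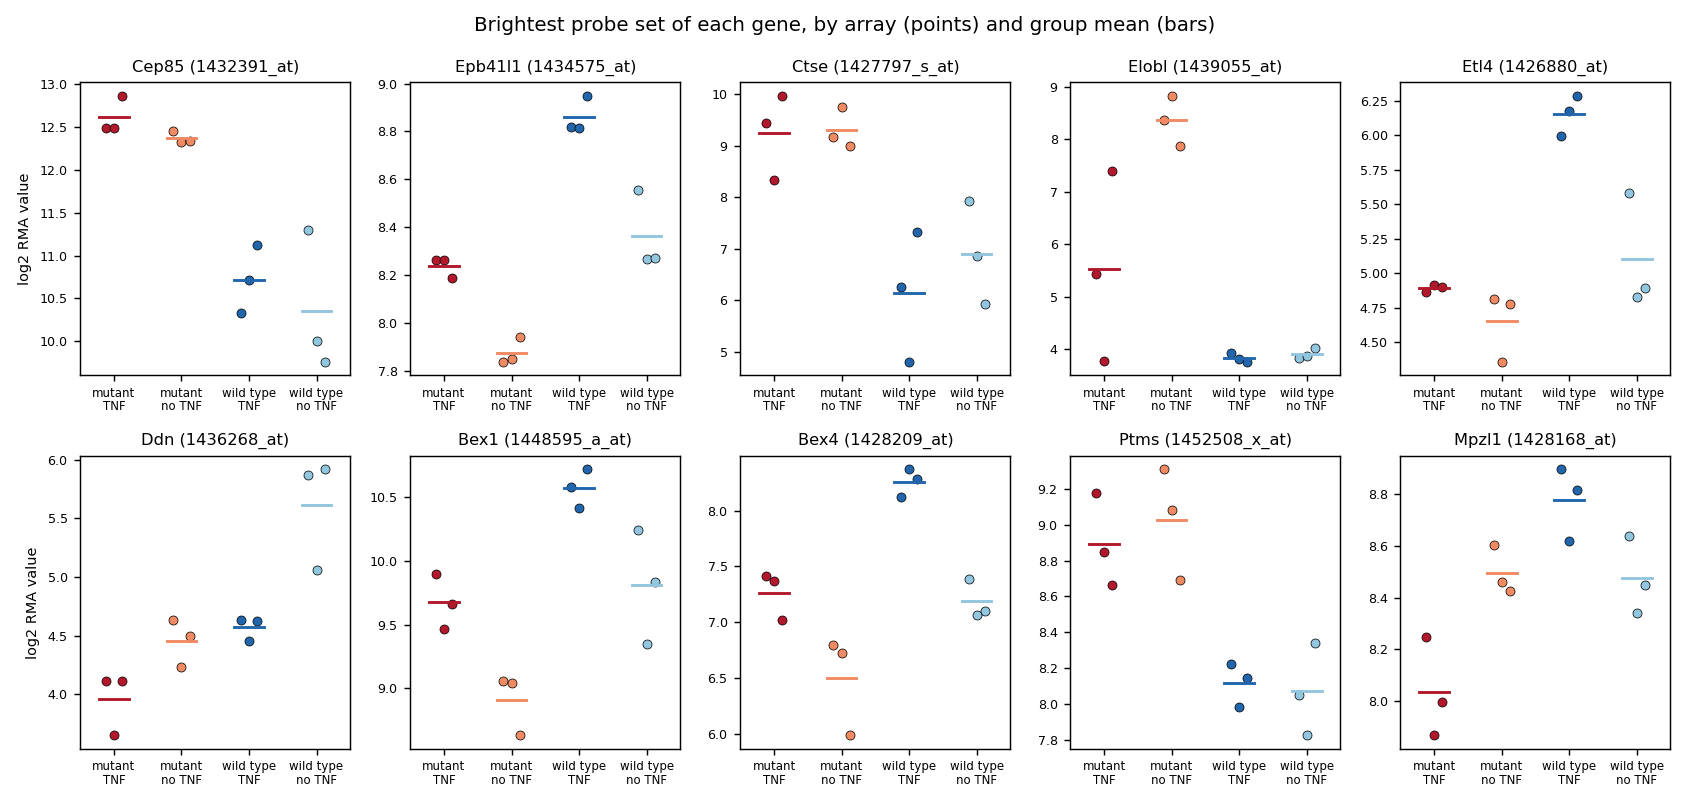
Log2 value of the brightest probe set of each of the 10 genes on each of the 12 arrays (points), with group means (bars), for mutant and wild-type cells with and without TNF. Each panel has its own axis. By group mean Elobl, Ctse, Cep85 and Ptms sit higher on the mutant arrays, and Bex1, Bex4, Epb41l1, Etl4 and Ddn sit lower. With TNF the mutant and wild-type values of Elobl overlap.

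At their brightest probe sets Elobl, Ctse, Cep85 and Ptms were higher on the arrays labelled mutant, which did not hold for the other probe sets of Ctse, Cep85 and Ptms. Elobl, on chromosome 11, is named for its likeness to elongin B, a subunit of ubiquitin ligase and transcription elongation complexes. Its only probe set read 5.43, 3.79 and 7.40 on the TNF-treated mutant arrays and 8.37, 8.83 and 7.88 on the untreated mutant arrays. On the wild-type arrays it read 3.94, 3.82 and 3.77 with TNF and 3.83, 3.87 and 4.03 without. All 6 wild-type values lay below 4.14, the level under which 25% of all values fell, while the untreated mutant values lay far above them. Without TNF the difference was 4.45 (SE 0.66, 3 arrays a group), with no fold given because the wild-type values lay near the floor. With TNF it was 1.70 (SE 0.66), and there the groups overlapped, because treated mutant replicate 2 read 3.79. The TNF difference within the mutant arrays was -2.82, against -0.07 in wild type. The interaction was -2.75 (SE 0.94), and it is given without a test because it contains the genotype contrasts that chose the gene. A list of 8 granulocyte markers was lower with TNF in both genotypes, while Elobl was lower with TNF on the mutant arrays only. The list averaged 9.67, 8.41 and 9.74 on the treated mutant arrays and 11.29, 11.48 and 11.69 on the untreated ones. On wild-type arrays it averaged 7.92, 8.06 and 8.62 with TNF and 10.68, 11.20 and 11.14 without. Treated mutant replicate 2 was the lowest of the treated mutant arrays both for Elobl and for this list. Among the untreated mutant arrays the list was highest on replicate 3, where Elobl was lowest. On the untreated wild-type arrays the list was high with Elobl near the floor. The part of granulocyte RNA in the Elobl values was not tested, and in bulk RNA fewer cells of a type and less RNA per cell cannot be told apart.

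Ctse encodes cathepsin E, an aspartic protease of endosomes found in immune and epithelial cells, on chromosome 1. Probe set 1427797_s_at read 9.43, 8.34 and 9.97 on the treated and 9.18, 9.76 and 9.0 on the untreated mutant arrays. Wild-type arrays read 6.27, 4.81 and 7.33 with TNF and 7.93, 6.86 and 5.92 without. Every mutant array stood above every wild-type array, by 3.11 with TNF and 2.41 without (SE 0.66), 6.77-fold on average, although the wild-type values spread over 3 log2 units. The second probe set, 1418989_at, did not separate the genotypes. It read 5.89, 6.28 and 6.14 on the treated and 7.06, 6.55 and 6.74 on the untreated mutant arrays, and 5.46, 6.47 and 5.58 on the treated and 7.55, 6.61 and 6.82 on the untreated wild-type arrays. Its genotype difference averaged 0.03 (SE 0.21), against 2.76 (SE 0.47) for the other. The suffix _s_at marks a probe set whose probes match transcripts of more than 1 gene or form, so the 2 probe sets need not report the same RNA.

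Cep85, on chromosome 4, encodes a centrosomal protein that in human cells binds the mitotic kinase NEK2. Its 2 probe sets disagreed in direction. Probe set 1432391_at read 12.49, 12.49 and 12.87 on the treated and 12.45, 12.33 and 12.34 on the untreated mutant arrays. Wild-type arrays read 10.32, 10.72 and 11.12 with TNF and 11.29, 10.01 and 9.76 without. Here the mutant arrays were higher by 1.90 with TNF and 2.02 without (SE 0.34), 3.88-fold on average, with no overlap. Probe set 1451212_at ran the other way. It read 8.45, 8.16 and 7.32 on the treated and 7.71, 7.90 and 7.89 on the untreated mutant arrays, against 9.90, 9.36 and 9.25 on the treated and 9.55, 9.29 and 9.41 on the untreated wild-type arrays. Its difference was -1.53 with TNF and -1.59 without (SE 0.26), 0.340-fold on average, and again no mutant array overlapped a wild-type one. The mutant groups also spread less than the wild-type groups at 1432391_at (n = 3 each). The SD there was 0.07 against 0.82 without TNF and 0.22 against 0.40 with TNF. At 1451212_at it was 0.11 against 0.13 without TNF, and with TNF the mutant SD was the larger, 0.59 against 0.35.

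**Figure D2:**
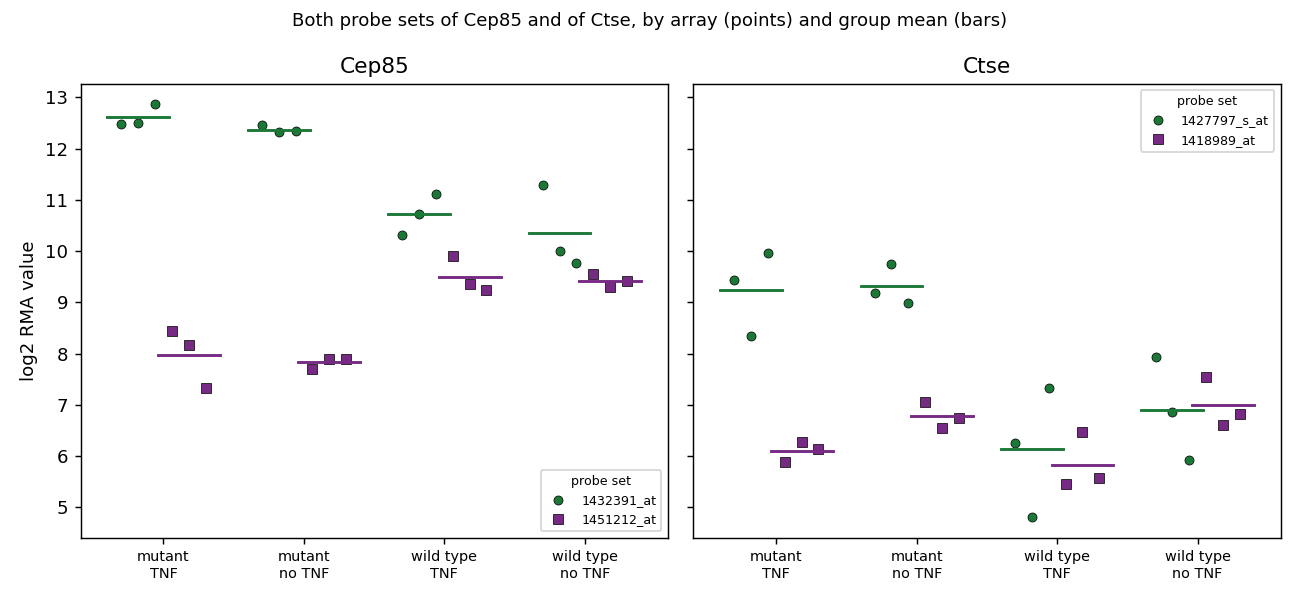
Log2 values of both probe sets of Cep85 (left) and Ctse (right) on each array (points), with group means (bars). For Cep85 the probe set 1432391_at is higher and 1451212_at is lower on the mutant arrays; for Ctse 1427797_s_at is higher on the mutant arrays while 1418989_at overlaps between genotypes.

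Opposed probe sets of this kind were rare. Of 9010 genes with several probe sets, Cep85 was the only 1 with a probe set at least 1 log2 unit higher and another at least 1 lower on the mutant arrays, averaged over treatment. It was also the only 1 when the limit was 0.5, and the only 1 whose probe sets were without overlap in opposite directions at both treatments. This count was made after the Cep85 values were seen, and it uses the genotype differences on which Cep85 was chosen. Which transcript forms the probe sets read was not tested, since the probe sequences were not used here.

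**Figure D3:**
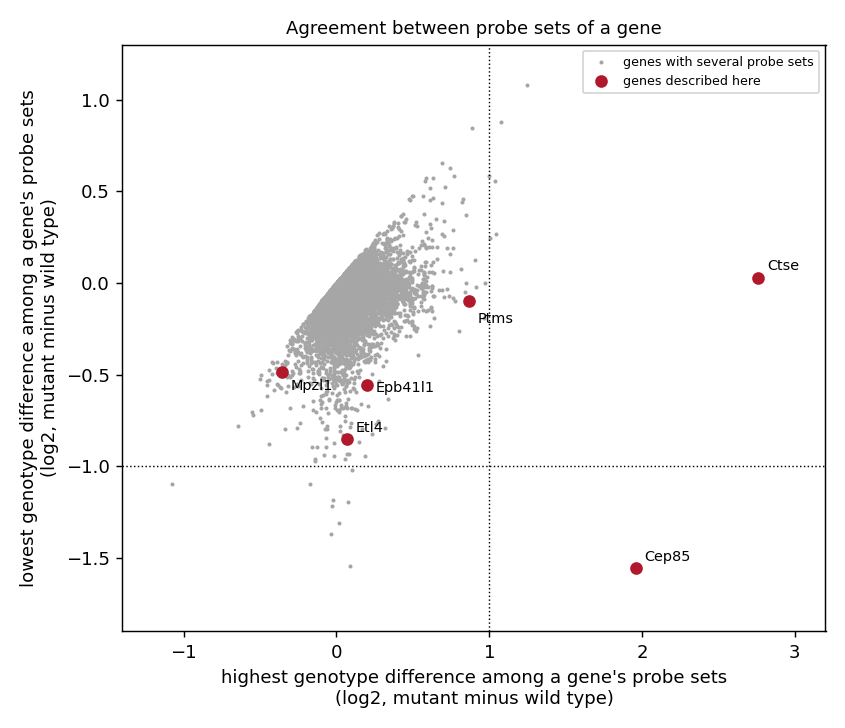
For each of 9010 genes with several probe sets (grey points), the highest (x axis) and lowest (y axis) genotype difference among its probe sets, mutant minus wild type, averaged over treatment, in log2 units. Dotted lines mark differences of 1 and -1; Cep85 is the only gene beyond both, and Ctse, Ptms, Etl4, Epb41l1 and Mpzl1 are marked for comparison.

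Ptms, on chromosome 6, encodes parathymosin, a small acidic nuclear protein related to prothymosin alpha. Of its 3 probe sets 1452508_x_at separated the genotypes at both treatments, and the suffix _x_at marks probes that may bind other transcripts. It read 9.17, 8.85 and 8.66 on the treated and 9.31, 9.08 and 8.69 on the untreated mutant arrays, against 8.22, 7.98 and 8.15 on the treated and 8.05, 7.82 and 8.34 on the untreated wild-type arrays. The mutant arrays were higher by 0.78 with TNF and 0.96 without (SE 0.19), 1.82-fold on average. Both other probe sets, 1428708_x_at and 1428707_at, stayed between 7.43 and 8.11 on every array, with averaged genotype differences of -0.09 (SE 0.08) and -0.10 (SE 0.07). Without TNF 1428707_at ran the other way and also without overlap, at 7.74, 7.55 and 7.61 on mutant arrays against 7.79, 7.76 and 8.09 on wild-type arrays (-0.25, SE 0.11). On the 7 arrays with both Xist and Eif2s3y signal the untreated difference of 1452508_x_at was 0.35, from 1 array a group, and the averaged one 0.57.

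At their brightest probe sets Bex1, Bex4, Epb41l1, Etl4, Ddn and, with TNF, Mpzl1 were lower on the arrays labelled mutant. Bex1 and Bex4 belong to a mammalian family of small adaptor proteins encoded close together on the X chromosome and best known from neurons. They are shown here with their promoters because the pair moved together and because the promoters are almost the same. Both windows run from 250 bases before to 50 bases after the RefSeq start (GRCm38.p6), Bex1 at chrX:136215464-136215763 on the minus strand and Bex4 at chrX:136138746-136139045 on the plus strand. Capitals mark bases that differ between the windows or lie outside their alignment.
Bex1: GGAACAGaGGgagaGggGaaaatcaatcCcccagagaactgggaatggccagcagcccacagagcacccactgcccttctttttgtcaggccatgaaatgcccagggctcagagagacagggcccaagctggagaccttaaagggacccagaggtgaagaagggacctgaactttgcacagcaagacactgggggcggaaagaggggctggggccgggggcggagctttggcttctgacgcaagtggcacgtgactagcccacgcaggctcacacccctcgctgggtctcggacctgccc
Bex4: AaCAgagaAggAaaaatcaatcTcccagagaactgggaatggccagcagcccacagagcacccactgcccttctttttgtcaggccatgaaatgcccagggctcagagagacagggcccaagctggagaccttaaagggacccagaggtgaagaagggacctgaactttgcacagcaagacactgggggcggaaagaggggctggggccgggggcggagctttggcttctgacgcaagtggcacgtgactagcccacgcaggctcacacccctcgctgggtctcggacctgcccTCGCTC
The windows aligned over 294 bases, 288 of them identical (98.0%), with 1 identical stretch of 271 bases. The 6 differences, written with the Bex1 base, its position from the 5′ end of the Bex1 window and the Bex4 base, were G7A, G9C, G10A, G15A, G18A and C29T, all at the distal end. The RefSeq table lists older symbols of this family that cross over, with Bex4 as a synonym of Bex1, so the names here follow the platform annotation.

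Bex1 probe set 1448595_a_at read 9.90, 9.46 and 9.66 on the treated and 9.06, 9.04 and 8.63 on the untreated mutant arrays. Wild-type arrays read 10.58, 10.42 and 10.72 with TNF and 10.24, 9.35 and 9.83 without. The mutant arrays were lower at each treatment with no overlap, and the difference was -0.90 both with and without TNF (SE 0.21), 0.537-fold on average. Bex4 probe set 1428209_at read 7.41, 7.37 and 7.02 on the treated and 6.80, 6.73 and 5.99 on the untreated mutant arrays, against 8.12, 8.37 and 8.29 on the treated and 7.39, 7.07 and 7.10 on the untreated wild-type arrays. Its difference was -0.99 with TNF and -0.68 without (SE 0.20), 0.559-fold on average, again with no overlap. Both genes thus stood lowest on untreated mutant arrays and highest on treated wild-type arrays, and the remaining groups lay between. On the 7 arrays with both Xist and Eif2s3y signal, which include 1 untreated array of each genotype, the averaged differences of these X-linked genes were -1.01 for Bex1 and -1.05 for Bex4. The part of sex in the Bex differences was not tested further. Whether probes of the 2 genes share target sequence was not tested.

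**Figure D4:**
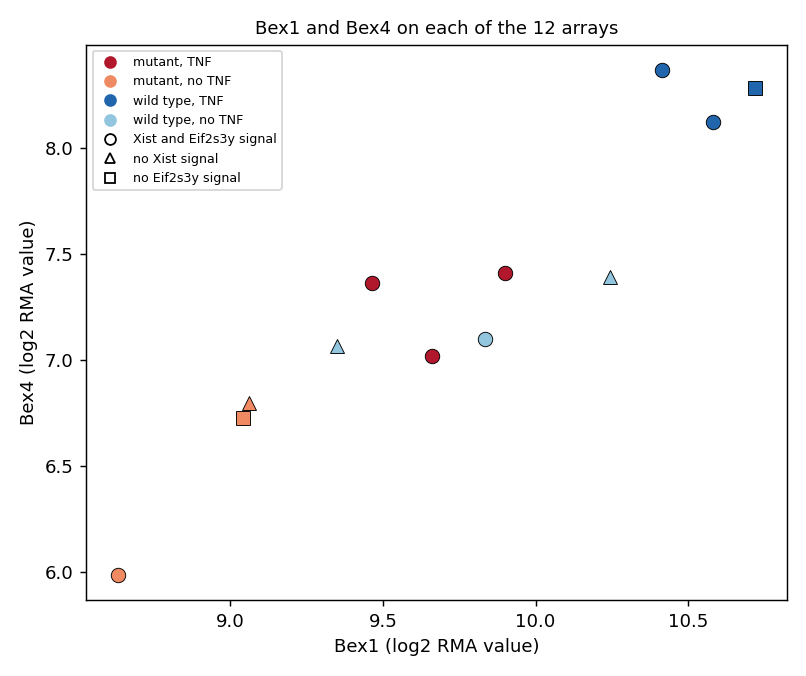
Log2 value of Bex1 (x axis) and Bex4 (y axis) on each of the 12 arrays, coloured by group, with triangles for arrays without Xist signal and squares for arrays without Eif2s3y signal. Untreated mutant arrays lie at the lower left and treated wild-type arrays at the upper right.

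Their relatives were also measured. Of the Bex and Tceal family, 7 other genes had values, each from 1 probe set. In limma 0 passed for genotype, and 2 had an unadjusted p under 0.05. Of all probe sets only 0.0266% passed for genotype, so 0 of 7 cannot set the family apart from the pair. Bex3 read 11.61 to 11.99 over the 12 arrays and Bex6 10.48 to 11.02, with averaged genotype differences of -0.06 (SE 0.07) and 0.15 (SE 0.11). Bex2 read 4.72 to 6.07, with a difference of -0.27 (SE 0.19). Tceal1, 4 measured genes from Bex1, differed by -0.53 (SE 0.14), in the direction of Bex1, and did not pass (limma adjusted p = 0.646).

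Epb41l1 encodes a relative of the red-cell membrane protein Epb41, which ties spectrin and actin to the membrane, and lies on chromosome 2. Probe set 1434575_at read 8.26, 8.26 and 8.19 on the treated and 7.84, 7.85 and 7.94 on the untreated mutant arrays, against 8.82, 8.82 and 8.95 on the treated and 8.55, 8.27 and 8.27 on the untreated wild-type arrays. Differences were small, -0.62 with TNF and -0.49 without (SE 0.09), yet the replicates were tight, with SDs of 0.04 and 0.06 on the mutant arrays, and no arrays overlapped at either treatment. The second probe set, 1460592_at, read 7.20, 6.65 and 6.42 on the treated and 6.40, 6.30 and 6.35 on the untreated mutant arrays, against 7.11, 6.54 and 7.0 on the treated and 7.91, 7.07 and 6.87 on the untreated wild-type arrays. It was lower on mutant arrays without TNF, by -0.93 (SE 0.27) and with no overlap, while with TNF the arrays overlapped (-0.13). Using the 7 arrays with both sex-linked signals, untreated differences were -0.33 at 1434575_at and -0.52 at 1460592_at, from 1 array a group. The third, 1421090_at, lay between 5.17 and 6.10 on all arrays and was higher on average by 0.20 (SE 0.15) with overlap at both treatments.

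Etl4, also on chromosome 2, is the mouse Sickle tail gene, known for its role in the notochord and intervertebral discs. Its brightest probe set, 1426880_at, read 4.86, 4.92 and 4.90 on the treated and 4.81, 4.36 and 4.78 on the untreated mutant arrays. Wild-type arrays read 6.0, 6.18 and 6.29 with TNF and 5.58, 4.83 and 4.89 without. With TNF the difference was -1.26 (SE 0.19), against mutant values near the floor. Without TNF it was -0.45, wild-type replicates 2 and 3 lay just above the highest mutant value, and on the 7 arrays with both sex-linked signals it was -0.12 from 1 array a group. The other 5 probe sets of Etl4 had group means of 2.81 to 4.88, near the floor, with averaged genotype differences from -0.08 to 0.07.

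Ddn, on chromosome 15, encodes dendrin, a protein of neuronal dendrites and kidney podocytes. Its only probe set read 4.11, 3.65 and 4.11 on the treated and 4.63, 4.23 and 4.50 on the untreated mutant arrays, against 4.64, 4.46 and 4.63 on the treated and 5.87, 5.06 and 5.92 on the untreated wild-type arrays. Its genotype difference was -0.61 with TNF and -1.16 without (SE 0.22). All of these values lay below the median of the arrays, 6.02, where log2 differences are compressed.

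Mpzl1, on chromosome 1, encodes a cell-surface protein that binds the phosphatase SHP2. Probe set 1428168_at read 8.25, 7.87 and 8.0 on the treated and 8.60, 8.46 and 8.42 on the untreated mutant arrays. Wild-type arrays read 8.89, 8.62 and 8.81 with TNF and 8.64, 8.34 and 8.45 without. The genotypes differed with TNF, by -0.74 (SE 0.12) and with no overlap, and were level without it, at 0.02 (SE 0.12). The TNF difference was -0.46 on mutant arrays and 0.30 on wild-type arrays, an interaction of -0.76 (SE 0.17), which was among the contrasts open to the choice of the gene and is not tested. The second probe set, 1428167_a_at, read 8.16, 7.40 and 7.94 on the treated and 8.35, 8.12 and 7.82 on the untreated mutant arrays, against 8.54, 8.16 and 8.74 on the treated and 8.91, 8.03 and 8.33 on the untreated wild-type arrays. It differed by -0.65 with TNF and -0.33 without (SE 0.26), with overlap at both treatments.

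Over all 22 probe sets, 9 from 8 genes had mutant and wild-type arrays that did not overlap at both treatments in the same direction, 3 of them higher and 6 lower on the mutant arrays. The same held for 0.724% of all probe sets, a background that says nothing of these genes, which were chosen on that contrast. Elobl and Mpzl1 were the 2 genes with no such probe set. None of the 6 genes with several probe sets had all of them separate in 1 direction. Of the 22 probe sets, 8 lay among the 100 largest averaged genotype differences of all 45037, a count that restates the choice of the genes. On the 7 arrays with both sex-linked signals the averaged differences of the brightest probe sets were 2.75 for Elobl, 3.39 for Ctse, 2.34 for Cep85 and 0.57 for Ptms. They were -1.01 for Bex1, -1.05 for Bex4, -0.45 for Epb41l1, -0.65 for Etl4, -1.0 for Ddn and -0.37 for Mpzl1. For the 8 genes without overlap at both treatments no choice of arrays could change the sign, so it was fixed beforehand. The untreated part of each value rests on 1 array of each genotype. On all 12 arrays the median size of the difference was 0.51 over the 22 and 0.08 over all probe sets, which also follows from the choice.

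The response to TNF, averaged over the genotypes, was tested because its estimate is orthogonal to the genotype contrasts in the balanced fit of 12 arrays. That need not hold in the alternatives that leave out arrays, weight them or add covariates, among them the fit of 7 arrays. A choice of consistent genotype differences can still favour probe sets with a small spread within groups, which this test also uses. With TNF Bex1, Bex4, Epb41l1 and Etl4 rose, and Ddn and Ctse fell, each at 1 probe set. In limma 6 of the 22 probe sets passed at an adjusted p under 0.05, from 6 genes, 4 higher and 2 lower. Of all probe sets 7.41% passed, 3.8% higher and 3.61% lower. The median TNF difference was -0.01 over the 22 and -0.03 over all probe sets.

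Bex4 rose by 0.92 (95% interval 0.60 to 1.23, 1.89-fold, limma adjusted p = 0.00307), and in each genotype the treated arrays stood above the untreated ones without overlap. It passed under all 21 alternative settings, with an adjusted p of at most 0.0469. Bex1 rose by 0.76 in each genotype (0.43 to 1.09, 1.70-fold, limma adjusted p = 0.0113). It did not pass with Xist and Eif2s3y as covariates (adjusted p = 0.0644) or on the 7 arrays that carry both signals (0.0851), where the difference was 0.85. The pair thus stood lower on mutant arrays and higher on treated ones, and treated mutant and untreated wild-type arrays overlapped, at 9.67 ± 0.22 and 9.81 ± 0.45 for Bex1 and 7.26 ± 0.22 and 7.19 ± 0.18 for Bex4 (mean ± SD, n = 3 each).

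Epb41l1 1434575_at rose by 0.43 (0.28 to 0.58, limma adjusted p = 0.00295) without overlap in either genotype, and missed the threshold only on the 7 arrays (0.110). Etl4 1426880_at rose by 0.65 (0.35 to 0.95, limma adjusted p = 0.0151), by 0.24 on mutant and 1.05 on wild-type arrays. Ddn fell by 0.77 (interval -1.11 to -0.43, limma adjusted p = 0.0130). Neither Etl4 nor Ddn passed with the sex-linked covariates (0.0533 and 0.0766) or on the 7 arrays (0.0595 and 0.0894). Ctse 1418989_at, the probe set that did not separate the genotypes, fell by 0.92 (interval -1.37 to -0.46, limma adjusted p = 0.0219), while 1427797_s_at, the one that did, showed -0.42 (interval -1.45 to 0.61, adjusted p = 0.665). The fall of 1418989_at did not pass with the covariates (0.160), on the 7 arrays (0.316), or without treated mutant replicate 1 (0.0545), untreated mutant replicate 1 (0.0519) or treated wild-type replicate 3 (0.0569). All 8 granulocyte markers and 3 of 6 monocyte and dendritic markers also fell with TNF in limma, and the part of those cells in the Ctse and Ddn results was not tested.

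The brightest probe sets of the other genes did not pass. Elobl had a TNF difference of -1.45 (interval -2.48 to -0.41, limma adjusted p = 0.0962), which passed without treated mutant replicate 3, the array at 7.40 (-1.91, adjusted p = 0.00313). Cep85 1432391_at had 0.30 (-0.22 to 0.83, adjusted p = 0.516) and passed without untreated wild-type replicate 1 (0.54, adjusted p = 0.0483), the array that read 11.29. Its probe set 1451212_at had 0.12 (-0.28 to 0.52). For Ptms 1452508_x_at the TNF difference was -0.04 (-0.34 to 0.25) and for Mpzl1 1428168_at -0.08 (-0.27 to 0.11), intervals that exclude a doubling in either direction. Among the dimmer probe sets Etl4 1457147_at had -0.26 (adjusted p = 0.0511) and passed in 3 of 19 alternatives, and Ptms 1428708_x_at had 0.26 (adjusted p = 0.0840) and passed without untreated wild-type replicate 3 (adjusted p = 0.0435).

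**Figure D5:**
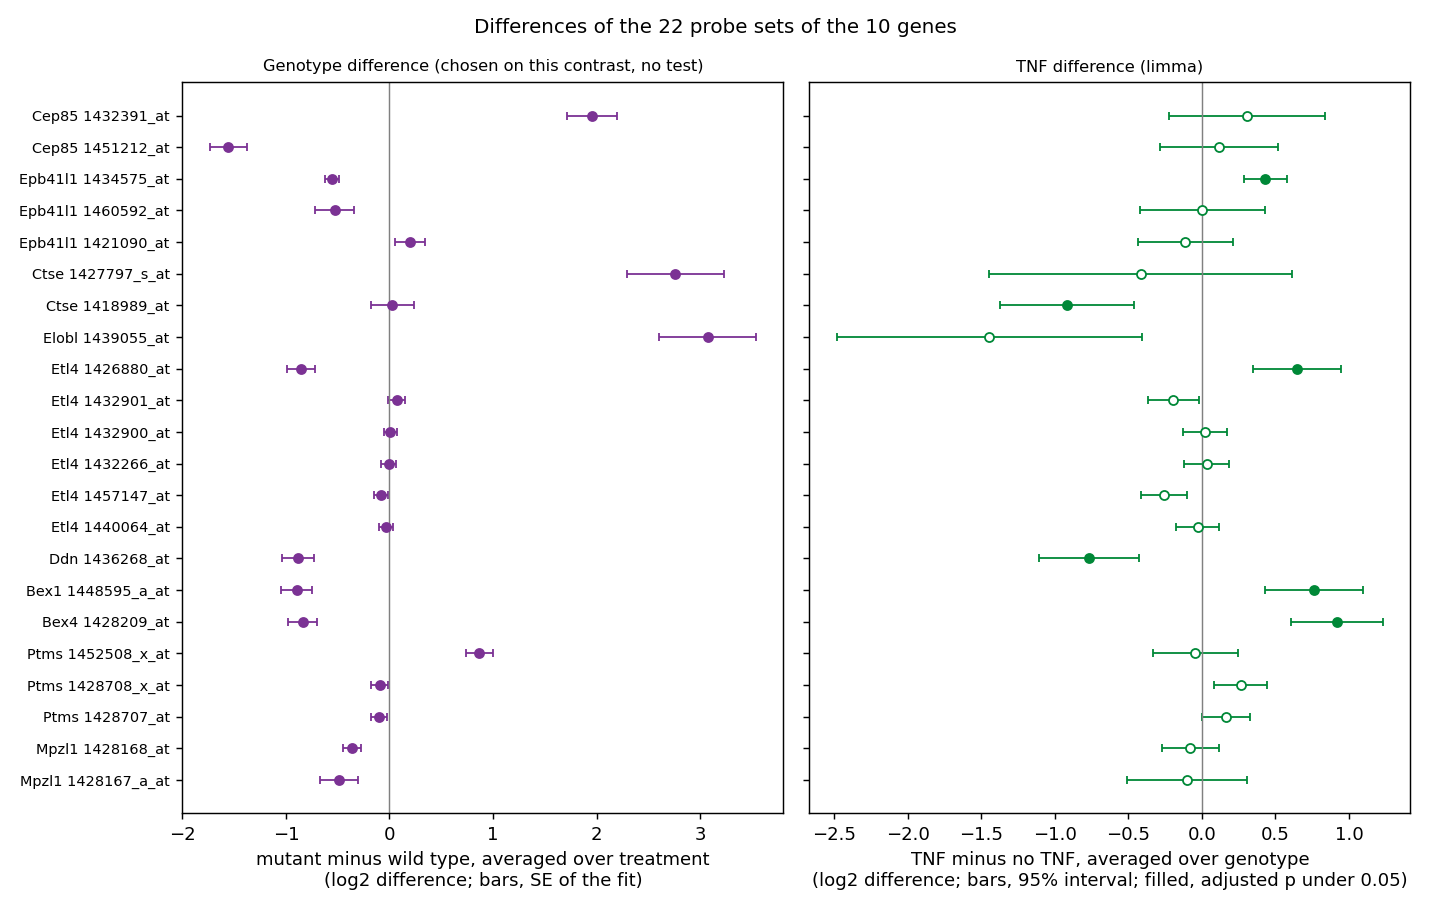
Differences of the 22 probe sets in log2 units, left for genotype (mutant minus wild type, averaged over treatment, with SE) and right for TNF (TNF minus no TNF, averaged over genotype, with 95% interval). Filled green points passed limma at an adjusted p under 0.05 and open ones did not; the 6 filled points are Epb41l1 1434575_at, Ctse 1418989_at, Etl4 1426880_at, Ddn, Bex1 and Bex4. The genotype side carries no test because the genes were chosen on it.

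Relatives of the 10 genes, taken from family and complex membership, were tested in the same fit. Of 71 symbols listed, some of them older names, 56 were measured by 126 probe sets. For genotype 0 passed in limma, against 0.0266% of all probe sets. At that share, 0 calls among 126 cannot tell whether the relatives differed by genotype. An unadjusted p under 0.05 was found for 11, against 6.30% of all probe sets (2838 of 45037). The smallest p belonged to Tceal1, given above, and to Ptpn11, which encodes the phosphatase SHP2 that Mpzl1 binds (0.76 higher, SE 0.23, limma adjusted p = 0.707, at 1 of its 3 probe sets). For TNF 9 of the 126 probe sets rose and 10 fell, against the 3.8% and 3.61% of all probe sets given above. Among relatives of Epb41l1, Epb41l2 rose by 0.70 and 0.58 at 2 probe sets, Epb41l3 by 0.71 and Epb41l4b by 0.66, the same direction as Epb41l1, while the partners Gypc (-0.29) and Mpp1 (-0.24) fell. Among proteases like Ctse, the aspartic protease Napsa rose by 0.77 and 0.81 and the cysteine protease Ctso by 0.67 and 0.85. The aspartic protease Bace1 fell at 3 probe sets (-1.03, -0.94 and -0.98), and the granulocyte protease Ctsg fell by 0.92 and Ctsl by 0.81. Among centrosome genes Sass6 (-0.51) and Nek2 (-0.34), the kinase gene named above for Cep85, fell at 1 dimmer probe set each. Their brightest probe sets did not pass, at -0.03 for Sass6 (limma adjusted p = 0.781) and -0.03 for Nek2 (limma adjusted p = 0.873). On the 7 arrays with both sex-linked signals 1 of the 126 passed for TNF, and with those signals as covariates 10 did.

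Position along the chromosome gave no further calls. The 5 nearest measured genes on each side of the 10 genes, members left out, came to 91 genes and 182 probe sets, of which 0 passed for genotype in limma, 12 had an unadjusted p under 0.05 and 0 were without overlap at both treatments. Taking 10 genes on each side gave 355 probe sets, again with 0 called, with 23 at an unadjusted p under 0.05 and with 5 without overlap at both treatments. Of all probe sets 0.0266% passed, 6.3% had an unadjusted p under 0.05 and 0.724% were without overlap at both treatments in the same direction. With so few calls over the whole array, 0 calls among neighbours cannot tell whether position mattered. After Tceal1, the smallest p among the nearest genes belonged to Scpep1, a serine carboxypeptidase gene next to Elobl, at 0.35 higher (limma adjusted p = 0.708). Of the 24 probe sets beside Mpzl1, 6 had an unadjusted p under 0.05, among them Gpr161, a receptor gene named after its value was seen, at -0.75 and not passing.

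Genes with patterns over the 12 arrays most like each of the 10 were found by Pearson's r with the brightest probe set. This is a description over arrays that share groups and treatment. Only probe sets with a single gene symbol were searched, and the 10 genes themselves and genes with predicted or clone-based symbols were left out. Closeness among the 10 was therefore not ranked, and the closest genes below are the closest among those searched. Bex1 was followed most closely by Pkia, an inhibitor of protein kinase A (r = 0.98), and by Ndn, which encodes necdin, a growth suppressor known from neurons (r = 0.95). Ndn had genotype differences of -1.27 with TNF and -1.55 without, and its averaged TNF difference was 1.26. Bex4 was most like Zfp523 (r = 0.95) and Arhgap6 (r = 0.94), Epb41l1 most like Grb10, a signalling adaptor (r = 0.94), and Mprip (r = 0.94), and Etl4 most like Fbxo25 (r = 0.95) and Cyp2u1 (r = 0.94). Ddn was most like Mettl7a1 (r = 0.94), which is also on chromosome 15, and Anks1b (r = 0.91). One gene recurred among those higher on the mutant arrays. Neurl1a was the closest to Ptms (r = 0.95), to Cep85 1432391_at (r = 0.89) and to Ctse 1427797_s_at (r = 0.86), although its own genotype difference was only 0.13 with TNF and 0.14 without. The second genes were Fam107a for Ptms (r = 0.87), Osgep for Cep85 (r = 0.86) and Samhd1 for Ctse (r = 0.85). Elobl was most like Eya4 (r = 0.91) and Gabra2 (r = 0.90), whose genotype differences of 0.30 and 0.26 without TNF were far below its own, and Mpzl1 was most like Anxa9 (r = 0.90) and Kcmf1 (r = 0.89).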

How the data were processed

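Per the submitters' processing notes the authors used RMA, which corrects background and gives all arrays one distribution; the deposited values are log2 signals per probe set for 12 arrays. The RMA version was not given in the sources used here. That the base is 2 was judged from the range, 2.14 to 14.94. A shift common to a whole group cannot be seen after RMA. Of 45101 probe sets 64 controls were left out, and the other 45037 were tested, 34945 with 1 gene symbol, 932 with several and 9160 with none listed. Gene order and promoter windows (found for 8 of the 10 genes) came from RefSeq, GRCm38.p6.

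Each probe set was fitted in limma 3.58.1 (R 4.3.3) with a mean for each of the 4 groups and empirical Bayes moderation, tests were 2-sided with Benjamini-Hochberg adjustment over all 45037 and a threshold of 0.05, and the code was tested on simulated data. The 10 genes, the relatives, the markers and the tests were chosen with earlier results of these data known. Named were the 10 genes, the 2 genes outside the 10 most like each by Pearson's r, and Fancc, Xist and Eif2s3y. The called relatives and neighbours were also named (up to 5 a direction, or else the 2 with the smallest p). Bex2, Bex3, Bex6, Gpr161 and called relatives beyond 5 a direction were added after their values were seen. Replicate numbers were not used to pair the arrays in the main fit. Same-numbered deviations correlated between -0.133 and 0.316. They were not compared with differently numbered ones, so whether the numbers mark pairs was not tested. Alternatives were a replicate block, a filter for at least 3 values above 6.02, 1 probe set per gene, centring on array medians, cyclic loess, moderation with trend and robust options, array weights from statmod 1.5.0, Xist and Eif2s3y as covariates, and leaving out each array. Using only the 7 arrays with both signals was chosen after seeing the data. The number of arrays limits the precision.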

Additional observations from a re-analysis of the deposited data

How the results depend on the processing

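Of the 22 probe sets 6 were called for TNF as reported, and 4 to 7 under the processing alternatives. The replicate block gave 6, and trended and robust moderation or array weights gave 7, with Etl4 1457147_at added. The filter on low values gave 4 because it left out Ddn and Etl4 1426880_at. Keeping 1 probe set per gene gave 5 because it left out Ctse 1418989_at. Without any 1 array 5 to 8 were called. The count was 2, Epb41l1 and Bex4, with the Xist and Eif2s3y covariates and 1, Bex4, on the 7 arrays with both signals, a fit with fewer samples. For the relatives the 19 TNF calls became 10 with those covariates and 1 on those 7 arrays, 11 without untreated mutant replicate 2 or 3 and 12 without treated wild-type replicate 3; the range without any 1 array was 11 to 21, and the replicate block gave 19. The 0 genotype calls among relatives and neighbours stayed at 0 in every alternative run. The 9 probe sets without overlap between genotypes ranged from 7 to 11. The replicate block changed no TNF call named in the text. Apart from the probe sets left out by a setting, the cause of the changes was not tested.

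Sign changes of TNF differences occurred only at probe sets that were not called. Epb41l1 1460592_at gave -0.0217 with centring and -0.106 to 0.161 leaving out 1 array. Etl4 1432900_at gave -0.00556 with centring, -0.00548 with array weights and -0.0188 to 0.0557 leaving out 1 array, Etl4 1432266_at -0.0056 to 0.0612 leaving out 1 array, and Etl4 1440064_at 0.0201 with cyclic loess and -0.0744 to 0.00796 leaving out 1 array. Ctse 1427797_s_at gave 0.149 with covariates. Mpzl1 1428167_a_at gave 0.00451 with array weights, 0.0753 with covariates, 0.0192 on 7 arrays and -0.20 to 0.0200 leaving out 1 array. Leaving out 1 array also gave -0.00259 to 0.28 for Cep85 1451212_at and -0.129 to 0.0264 for Ptms 1452508_x_at. Over the whole array the probe sets called higher and lower for TNF numbered 1710 and 1627 as reported, 1527 and 1872 with centring and 1863 and 1444 with cyclic loess. Differences at Elobl, Ddn and all Etl4 probe sets are limited by signal near the floor.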
